A study of Mus musculus with 2 samples.

Results

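Keratins are the intermediate filament proteins of epithelial cells. All 52 genes of the family in the taste table were taken, as the rows whose symbol is Krt followed by a number and an optional letter, out of 23394 genes in all. By their names, 27 were type I (acidic) keratins, 24 were type II (basic) keratins and 1 was the keratin-like Krt222. The libraries came from the tongue epithelium of Pkd2l1-tdTomato mice on a C57BL/6 background, in which a red reporter marks the cells that use Pkd2l1, a channel gene of sour (type III) taste cells. Reporter-positive cells, the sour cells, were sorted as 2 pools and as 56 single cells, of which 52 had at least 1000 genes and were kept. Reporter-negative cells, which the labels describe as other taste cells and supporting cells, made up the 4 control pools of the table. A pool held 50 to 100 cells, and all groups carried the same reporter. Ages, sexes and the number of mice behind a pool or a cell are not given in the sources used here, so p-values measure only the spread between these pools.

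A keratin filament is built from pairs of a type I and a type II chain, and the pair in use changes with the kind of epithelium. Krt8 with Krt18, joined by Krt7, Krt19 and Krt20, is the set of simple, single-layered epithelia and is also known from taste and Merkel cells. Krt5 with Krt14 and Krt15 belongs to the dividing basal layer of stratified epithelia, and Krt4 with Krt13 to the suprabasal layers of moist, non-cornified mucosa such as that of the mouth. Krt6a, Krt6b, Krt16 and Krt17 are keratins of wounds, of stressed epithelium and of skin appendages, and the hard keratins build hair, nail and the filiform papillae of the tongue.

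Sour pools held 403166 and 188503 gene reads, control pools held between 343757 and 680954, and the kept single cells held between 219578 and 914244. Levels are given as CPM, counts per 1000000 gene reads of a library. The 9 sour cell markers summed to 20346 and 13936 CPM in the sour pools and to between 2.94 and 26.2 CPM in the control pools. Of the other taste cells, type II markers summed to between 69.5 and 189 CPM in the control pools, where Trpm5 and Gnat3, which define that type, were at 0. Myeloid markers stood out in sour pool 1, at 4125 CPM against 5.30 CPM in sour pool 2, and in control pool 2, at 1407 CPM against 48.5 to 98.9 CPM in the other control pools. Stromal markers summed to 551 and 488 CPM in sour pools and to between 2338 and 2896 CPM in control pools, but by different genes. Vwf, a gene of endothelial cells, was called higher in sour pools (mean 458 CPM, n = 2, against 2.62 CPM in control pools, n = 4, edgeR adjusted p = 3.55e-06). Vwf was also read in 43 of the 52 kept single sour cells, with a median of 152 CPM. Pecam1, another gene of the stromal list, had no read in the sour pools. Dcn, a gene of fibroblasts, was called lower (mean 52.4 CPM in sour pools, n = 2, against 2590 CPM in control pools, n = 4, edgeR adjusted p = 4.04e-06). Type I taste cell markers summed to 94.3 and 31.8 CPM in sour pools and to between 200 and 660 CPM in control pools. Hes1 held the largest part in each control pool (118 to 628 CPM, against 27.3 and 21.2 CPM in sour pools). Slc1a3 had 2.91 to 42.6 CPM in control pools and no read in sour pools. Entpd2 overlapped between the groups (64.5 and 10.6 CPM in sour pools, 29.1 to 70.9 CPM in control pools). Kcnj1 was read in sour pool 1 alone. Salivary gland markers summed to 9.92 and 0 CPM in sour pools and to 0 CPM in control pools. Markers of lingual basal cells other than keratins summed to 241 and 127 CPM in sour pools and to between 1211 and 3288 CPM in control pools. Those of suprabasal keratinocytes summed to 149 and 281 CPM in sour pools and to between 390 and 1428 CPM in control pools. Of 5 tested genes of the suprabasal list, 4 were called lower. The other, Cnfn, was called higher (mean 40.2 CPM in sour pools against 4.77 CPM in control pools, edgeR adjusted p = 0.0205). The part of these other cells in the results was not tested; in bulk pools fewer cells of a type and less RNA per cell cannot be told apart.

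Sour pools carried a smaller share of keratin reads than control pools, and a different set. Keratins took 2.62% and 2.74% of gene reads in the sour pools, against 9.19%, 8.72%, 7.56% and 9.98% in control pools 1, 2, 4 and 6. The groups did not overlap. In the single sour cells the share ran from 0.225% to 5.79%, with a median of 0.785%. The simple-epithelium keratins held 92.8% and 90.0% of the keratin reads of the sour pools, against 0.909% to 1.69% of those of the control pools. Basal keratins held 0.967% and 0.812% of keratin reads in sour pools, against 33.5% to 47.7% in control pools. Mucosal suprabasal keratins held 4.76% and 7.09% in sour pools, against 36.1% to 57.9% in control pools. The stress and appendage keratins held 1.10% and 1.18% in sour pools, against 6.84% to 14.8% in control pools. Summed per kilobase of exon, type I chains stood to type II chains as 0.752 and 0.846 in sour pools. In control pools the ratios were 1.03 to 1.76. Krt7 gave 2163 and 2204 CPM per kb of the type II sums of 4751 and 4836 in sour pools. Its 7049 bases of exon cover several transcripts, so its level may be set too low and the sour pool ratios too high.

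**Figure D1:**
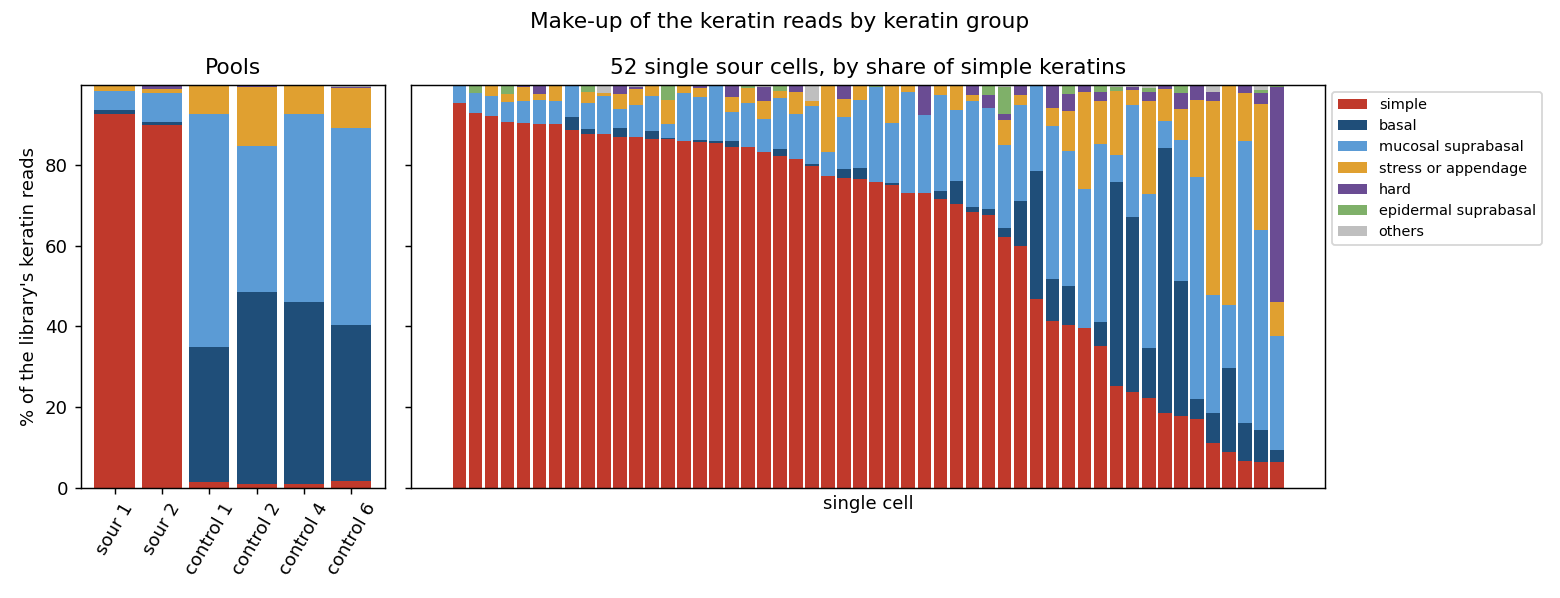
Share of each keratin group in the keratin reads of a library (%), for the 2 sour pools, the 4 control pools and the 52 single sour cells ordered by their share of simple keratins. Simple keratins fill at least 90.0% of the bar in the sour pools and at most 1.69% in the control pools, and run from 95.5% to 6.33% over the single cells.

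Of the 52 keratins, 39 had a read in some pool and 20 passed the filter on low counts. edgeR's quasi-likelihood test called 5 of them higher and 10 lower in sour pools. A call needed at least a 2-fold change and a p under 0.05 after Benjamini-Hochberg adjustment over all tested genes. Over all 7739 tested genes, 1158 (15.0%) were called higher and 1113 (14.4%) lower. The median log2 fold change was -3.55 over the 20 tested keratins (-3.30 with genes unread in a group set to the bound of their fold) and -0.01 over all tested genes. For all 15 called keratins, no pool of one group reached the other. Over all tested genes, every sour pool lay above every control pool in 25.6% and below in 22.9%. The 15 therefore also lay in the called direction within plates 1 and 3, which held both kinds of pool, and this is no further support.

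**Figure D2:**
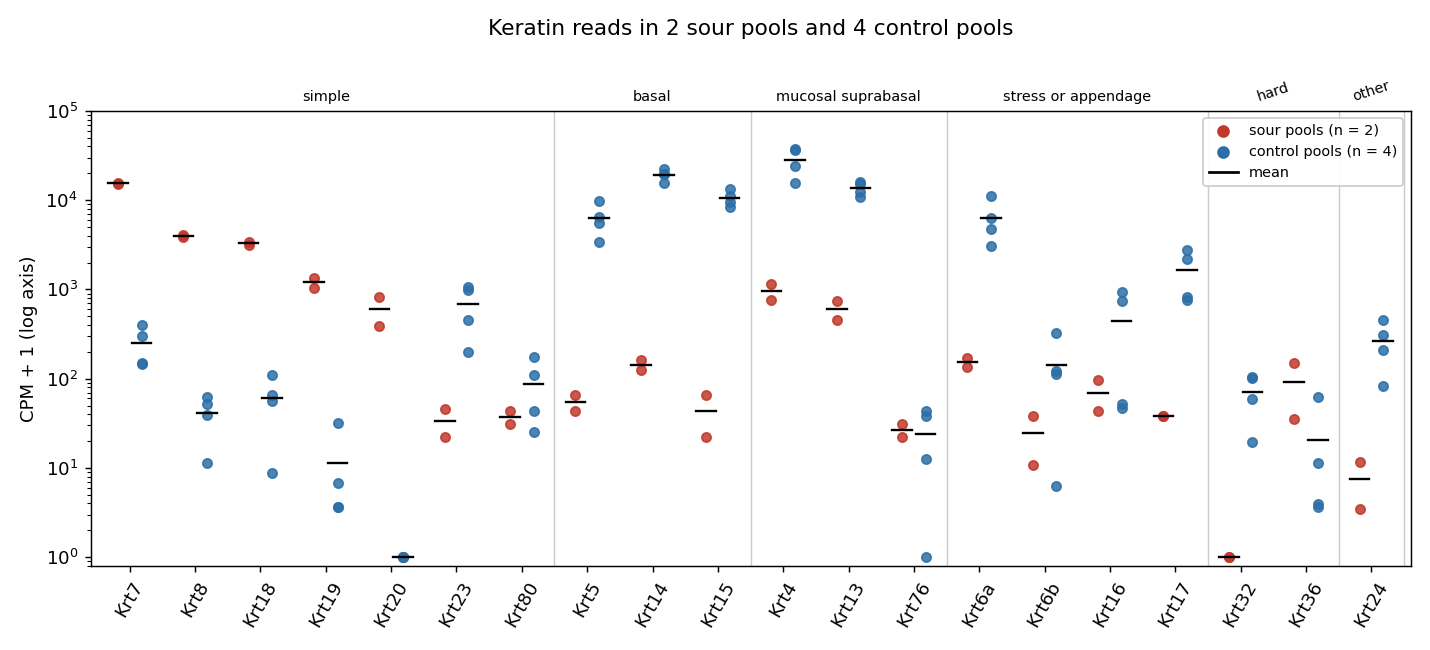
CPM plus 1 (log axis) of the 20 tested keratins, by group, with the 2 sour pools left of the 4 control pools and a bar at the mean. Krt7, Krt8, Krt18, Krt19 and Krt20 sit above every control pool, and the 3 basal keratins sit below every control pool by far more than the spread of either group.

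The keratins called higher were Krt7, Krt8, Krt18, Krt19 and Krt20, the simple-epithelium set. Krt7, a type II chain of ducts and glands, had 15247 and 15533 CPM in the sour pools, against 150, 147, 297 and 396 CPM in control pools 1, 2, 4 and 6. Sour pools were 62.2-fold above the control mean, and their 2 values were close together (log2 fold change 5.93, SE 0.45, adjusted p 4.87e-07, edgeR). Krt8, the type II chain of simple filaments, had 4090 and 3830 CPM in sour pools, against 51.4, 10.5, 61.5 and 37.8 CPM in the control pools. The sour mean was 98.3-fold that of the control pools (log2 fold change 6.56, SE 0.46, adjusted p 2.70e-07, edgeR). Krt18, its usual partner, had 3120 and 3427 CPM in sour pools, against 55.8, 7.87, 110 and 64.0 CPM in control pools. Its means differed 55.2-fold, with every sour pool above every control pool (log2 fold change 5.76, SE 0.54, adjusted p 3.32e-06, edgeR).

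Krt19, a short type I chain found in ducts and in taste buds, had 1354 and 1040 CPM in sour pools, against 30.8, 2.62, 2.67 and 5.82 CPM in control pools. The highest control pool was control pool 1, and it too lay far below the sour pools (log2 fold change 6.53, SE 0.57, adjusted p 1.79e-06, edgeR). Krt20, a type I chain best known from gut epithelium and Merkel cells, had 389 and 812 CPM in sour pools and no read in any control pool. Its sour mean was at least 356-fold above the 3 reads over all control pools that a count of 0 allows (adjusted p 1.45e-06, edgeR). Krt20 was thus the keratin with the least control signal, although its level was the lowest of the 5 in the sour pools.

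Per kilobase of exon, the sour pools held 3 keratins at like levels. Krt18 stood at 2171 and 2385 CPM per kb, Krt7 at 2163 and 2204, and Krt8 at 2089 and 1956. The ranges of Krt18 and Krt7 overlapped and that of Krt8 lay just below them, while Krt19 (730 and 561 CPM per kb) and Krt20 (202 and 421) lay below them. Krt4 followed at 358 and 545 CPM per kb, overlapping Krt20, and Krt13 at 248 and 411. In the control pools the order was another: Krt4 (7214 to 17743 CPM per kb), Krt14 (8968 to 12738), Krt13 (5953 to 8833) and Krt15 (4791 to 7557) were the highest. The range of Krt4 overlapped those of Krt14, Krt13 and Krt15, and the ranges of Krt13 and Krt15 overlapped. Krt14 lay above Krt13 by a narrow gap. The 7049 bases of exon behind Krt7 cover several transcripts, so its level per kilobase may be set too low.

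The genes of the simple set lie in the same 2 clusters as all other keratins (GRCm38). Of the 52 genes, 27 map to chromosome 11 (99232761 to 100269871) and 24 to chromosome 15 (101347444 to 102032027); Krt85 was not matched in the annotation. Krt7 (101411043 to 101430313, plus strand), Krt8 (101996698 to 102004482, minus strand) and Krt18 (102028180 to 102032027, plus strand) are on chromosome 15, where Krt18 is the only type I gene. Krt19 and Krt20 are in the type I cluster on chromosome 11. To let sour and control keratins be set side by side, the 120 bases before the RefSeq start site (GRCm38.p6) of 4 genes called higher and 2 called lower are given 5′ to 3′ on the gene's strand. Capitals mark the TATA box (TATAAA), a like motif that overlaps it where both occur (ATAAAAG) and the GC box (GGGCGG). The AP-1 motif (TGANTCA) was searched as well, and all were searched on both strands.
Krt7 (chr15:101412283-101412402, plus strand, called higher): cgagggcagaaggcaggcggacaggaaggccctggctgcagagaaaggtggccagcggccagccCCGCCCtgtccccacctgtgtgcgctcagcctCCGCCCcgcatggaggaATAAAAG
Krt8 (chr15:102004343-102004462, minus strand, called higher): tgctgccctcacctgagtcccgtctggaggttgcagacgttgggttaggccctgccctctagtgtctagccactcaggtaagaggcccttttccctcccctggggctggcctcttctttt
Krt18 (chr15:102028096-102028215, plus strand, called higher): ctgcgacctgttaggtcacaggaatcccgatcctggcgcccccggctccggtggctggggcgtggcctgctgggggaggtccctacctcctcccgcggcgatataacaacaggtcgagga
Krt20 (chr11:99438154-99438273, minus strand, called higher): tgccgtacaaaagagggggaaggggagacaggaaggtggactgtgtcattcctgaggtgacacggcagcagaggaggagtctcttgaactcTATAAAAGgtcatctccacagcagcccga
Krt5 (chr15:101712906-101713025, minus strand, called lower): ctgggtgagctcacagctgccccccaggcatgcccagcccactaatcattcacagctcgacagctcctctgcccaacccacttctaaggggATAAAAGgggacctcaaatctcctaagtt
Krt13 (chr11:100121567-100121686, minus strand, called lower): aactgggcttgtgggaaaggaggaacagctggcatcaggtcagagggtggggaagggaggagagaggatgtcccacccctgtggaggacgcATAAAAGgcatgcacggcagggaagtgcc
Krt8 and Krt18 held none of the 4 motifs in this stretch, and Krt7 alone of the 6 held the GC box. By the gene spans of GENCODE M21, the stretches of Krt7 and Krt8 lay inside the gene, and that of Krt18 partly inside. Those of Krt20, Krt5 and Krt13 lay outside the gene. The 6 stretches were thus not placed alike, and the motifs found depend on the start site used. ATAAAAG, chosen after these letters were seen, began 29 bases before the start in Krt5 and Krt13, 28 in Krt20 and 7 in Krt7. In the 250 bases before the start, TATAAA was found in 17 of 36 keratin promoters of 35 genes (47.2%), against 12.4% of all 32851 promoters. ATAAAAG was found in 12 of the 36 (33.3%), against 4.83% of all. The GC box was found in 2 of the 36 (5.56%), against 32.7% of all, and TGANTCA in 2 (5.56%), against 6.75% of all. A match describes letters and not a bound site.

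Among the keratins called lower, the basal layer gave some of the widest gaps: all 3 of its keratins passed the filter and all 3 were called lower in sour pools. Krt14, the main type I chain of basal keratinocytes, had 124 and 159 CPM in sour pools, against 15766, 22394, 19540 and 19613 CPM in control pools. The control mean was 137-fold the sour mean, and the groups lay far apart (log2 fold change -7.14, SE 0.53, adjusted p 4.63e-07, edgeR). Krt5, its type II partner, had 64.5 and 42.4 CPM in sour pools, against 6511, 9705, 3442 and 5597 CPM in control pools. Its control mean was 118-fold higher (log2 fold change -6.86, SE 0.60, adjusted p 1.79e-06, edgeR). Krt15, a type I chain of basal and progenitor cells, had 64.5 and 21.2 CPM in sour pools, against 8466, 9511, 11244 and 13353 CPM in control pools. That was a 248-fold difference of means, resting on 26 and 4 sour reads (log2 fold change -7.86, SE 0.61, adjusted p 6.07e-07, edgeR). Most tested basal cell markers other than keratins moved the same way: 4 of 5 were called lower and 1 was not called. Among those lower, Col17a1, which anchors basal cells to the basement membrane, had no read in sour pools and 1435 ± 623 CPM in control pools (SD, n = 4). Dst and Lgr5 of the same list had the higher mean on the sour side (Dst 109 against 79.0 CPM, Lgr5 7.61 against 2.20 CPM). For both, the groups overlapped.

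Of the 4 mucosal suprabasal keratins 3 were tested, and Krt4 and Krt13 were called lower. Krt4 had 764 and 1162 CPM in sour pools, against 37847, 15387, 24292 and 36372 CPM in control pools, where it was the most read keratin in 3 of 4. The control mean was 29.6-fold the sour mean (log2 fold change -4.92, SE 0.57, adjusted p 2.04e-05, edgeR). Krt13, its type I partner, had 451 and 748 CPM in sour pools, against 15296, 16085, 10840 and 12393 CPM in control pools. Its gap was 22.8-fold, and as for Krt4 no pool of one group reached the other (log2 fold change -4.54, SE 0.47, adjusted p 7.25e-06, edgeR). Both were nonetheless the highest of the non-simple keratins in the sour pools. Krt76, a keratin of hard palate and of other cornified oral epithelium, overlapped between the groups: it had 29.8 and 21.2 CPM in sour pools, against 0, 36.7, 42.8 and 11.6 CPM in control pools (log2 fold change 0.20, SE 1.07, adjusted p 0.919, edgeR). Krt78 had 3 sour reads and 43 control reads and was not tested.

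The stress and appendage keratins were split. Krt6a had 171 and 133 CPM in sour pools, against 4740, 11015, 3042 and 6310 CPM in control pools (log2 fold change -5.39, SE 0.61, adjusted p 1.68e-05, edgeR). Krt17 had 37.2 and 37.1 CPM in sour pools, against 767, 827, 2200 and 2734 CPM in control pools (log2 fold change -5.48, SE 0.69, adjusted p 4.04e-05, edgeR). For both, every control pool lay above every sour pool. Krt16, a type I chain that is induced with Krt6a and Krt6b in wounds, had 42.2 and 95.5 CPM in sour pools, against 51.4, 745, 45.4 and 931 CPM in control pools. Control pools 1 and 4 lay within the range of the sour pools and control pools 2 and 6 far above it, so Krt16 was not called (log2 fold change -2.80, SE 1.11, adjusted p 0.0748, edgeR). Krt6b had 9.92 and 37.1 CPM in sour pools, against 120, 323, 5.35 and 110 CPM in control pools, of which control pool 4 lay below both sour pools (log2 fold change -2.78, SE 1.08, adjusted p 0.0687, edgeR). With plate as a replicate block, both were called lower (log2 fold change -3.29 and adjusted p 0.00441 for Krt16, -3.14 and 0.00297 for Krt6b, edgeR).

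Krt79, which in skin marks the ducts of sebaceous glands, failed the filter because 1 library held nearly all of its reads. It had 12.4 and 21.2 CPM in sour pools, against 605, 10.5, 10.7 and 5.82 CPM in control pools. The 412 reads of control pool 1 stood against 2 to 4 reads in each other control pool. Krt75, of the hair follicle's companion layer, had 6 reads in sour pool 1 and 1 read in control pool 6.

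Outside these groups, Krt23, Krt24 and Krt32 were called lower. Krt23, a type I chain listed with simple epithelium, had 44.6 and 21.2 CPM in sour pools, against 996, 451, 200 and 1071 CPM in control pools (log2 fold change -4.29, SE 0.71, adjusted p 0.000394, edgeR). It thus went against the other called members of its list. Krt80, a type II chain of the same list, had 29.8 and 42.4 CPM in sour pools, against 42.6, 173, 24.1 and 108 CPM in control pools, and the groups overlapped (log2 fold change -1.32, SE 0.75, adjusted p 0.215, edgeR). Without control pool 4, Krt80 was called lower (log2 fold change -1.63, adjusted p 0.0466, edgeR). Krt24, a type I chain not placed in a group here, had 2.48 and 10.6 CPM in sour pools, or 3 reads in all, against 210, 310, 82.9 and 448 CPM in control pools (adjusted p 0.000287, edgeR). Krt32, a hard type I keratin, had no read in sour pools, against 101, 18.4, 58.8 and 105 CPM in control pools. That put the control mean at least 13.96-fold above the 3 reads over both sour pools that a count of 0 allows (adjusted p 0.00187, edgeR).

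Krt36, another hard type I keratin known from filiform papillae and nail, did not move with Krt32. It had 34.7 and 149 CPM in sour pools, against 2.94, 10.5, 2.67 and 61.1 CPM in control pools. Sour pool 1 lay below control pool 6, and Krt36 was not called (log2 fold change 2.22, SE 0.98, adjusted p 0.108, edgeR). It was called higher with plate as a replicate block (log2 fold change 1.79, adjusted p 0.0495), without control pool 6 (4.03, adjusted p 0.00521) and without sour pool 1 (2.93, adjusted p 0.0460), all by edgeR. The remaining hard keratins were near the limit of detection in the pools. Krt84, a type II hard keratin, had 8 and 6 reads in sour pools and 2 to 7 reads in control pools, and Krt31 had 4 reads in sour pool 1 and none elsewhere.

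**Figure D3:**
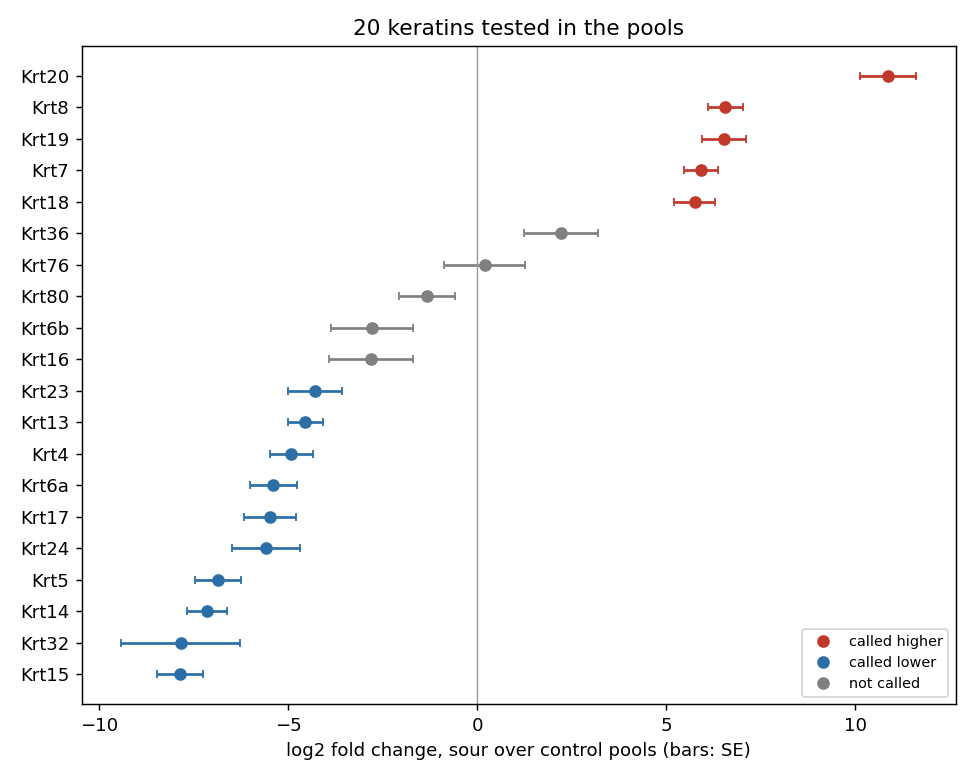
Fitted log2 fold change of sour over control pools with its standard error for the 20 tested keratins, in red where called higher, blue where called lower and grey where not called. The 5 simple keratins lie between 5.76 and 10.87 and the 10 called lower between -7.86 and -4.29; the fitted values of Krt20 and Krt32, each unread in a group, depend on the method and are no measured fold.

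The keratins of skin's cornified layers had few reads in the pools. Krt10 had 6 reads in each sour pool and 1 to 5 reads in the control pools, and Krt1, its type II partner, had 1 read in each sour pool and none in the control pools. Krt2 and Krt77 had 1 read each, in control pool 2, and Krt9 had none. Of the 8 keratins of the hair follicle's inner root sheath, Krt73 had 1 read in sour pool 1 and Krt27 had 4 reads over control pools 1 and 2. Krt12, the corneal keratin, had no read in the pools. In all, 13 keratins had no read in any pool, 15 had between 1 and 10 reads over the 6 pools, and 6 (Krt9, Krt25, Krt28, Krt71, Krt72 and Krt74) had none in the kept single cells either. For these, 0 reads allow up to 5.07 CPM over the sour pools and 1.69 CPM over the control pools, by a limit of 3 reads that covers counting error only.

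Genes that act with keratins were tested as 3 lists. Of 14 tested genes that anchor or cross-link keratin filaments, 1 was called higher and 7 lower in sour pools, with a median log2 fold change of -1.83. The gene called higher was Pkp2, a plakophilin of desmosomes in simple epithelia and heart, with 48.9 ± 5.94 CPM in sour pools (SD, n = 2) and 3.57 ± 5.52 CPM in control pools (SD, n = 4), a log2 fold change of 3.81 (adjusted p 0.0127, edgeR). Its relatives Pkp1 (log2 fold change -2.79, adjusted p 0.00154, edgeR) and Pkp3 (log2 fold change -3.82, adjusted p 1.88e-05, edgeR), plakophilins of stratified epithelia, were called lower. Also lower were the linker proteins Plec (log2 fold change -2.14), Dsp (-2.19) and Eppk1 (-3.87), with adjusted p of 0.000523, 0.000924 and 0.000209 (edgeR).

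Of 12 tested transcription factors of epithelial and taste cells, 3 were called higher and 8 lower, with a median log2 fold change of -3.02. Those higher were Foxa2, Hes6 and Elf3. Elf3, a factor of simple and differentiating epithelia, had 1664 ± 95.1 CPM in sour pools (SD, n = 2) and 152 ± 53.8 CPM in control pools (SD, n = 4), a log2 fold change of 3.42 (adjusted p 7.01e-06, edgeR). Trp63, the factor of stratified epithelium, had 5.30 ± 7.5 CPM in sour pools (SD, n = 2) and 384 ± 141 CPM in control pools (SD, n = 4), a log2 fold change of -6.66 (adjusted p 3.67e-05, edgeR). Pitx1, Klf5, Grhl3 and Tfap2c were lower too.

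Among 5 tested genes of other intermediate filaments the calls went both ways, with a median log2 fold change of -0.50. Ina, a neuronal filament, was called higher: it had 115 ± 1.85 CPM in sour pools (SD, n = 2) and no read in control pools (adjusted p 7.05e-05, edgeR). The nuclear lamins Lmna (log2 fold change -3.79, adjusted p 5.68e-06, edgeR) and Lmnb1 (log2 fold change -2.35, adjusted p 0.00311, edgeR) were called lower.

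The single sour cells carried the simple keratins as well. They came from plate 4 by their numbers and the analysed pools from plates 1 to 3, and no mouse is named for a cell, so the cells were described as 1 sample with no test. Of 52 cells, Krt8 had a read in 52, Krt7 in 51, Krt18 in 50, Krt19 in 48 and Krt20 in 42 (80.8%, exact 95% interval 67.5 to 90.4%). All of Krt7, Krt8, Krt18 and Krt19 were read in 48 cells (92.3%, 81.5 to 97.9%), and all 5 in 39 (75%, 61.1 to 86.0%). In 36 cells simple keratins made up at least 50% of keratin reads. Median levels were 1677 CPM for Krt7, 812 for Krt8, 806 for Krt18, 350 for Krt19 and 339 for Krt20.

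Per kilobase, the highest keratin of a cell was Krt18 in 17 cells, Krt8 in 12, Krt4 in 10 and Krt20 in 6. Krt15 led in 3 cells, Krt6a in 2, and Krt23 and Krt36 in 1 each, and Krt7 led in none. The rank of Krt7 depends on its 7049 bases of exon, which may set its level per kilobase too low. In CPM, its median of 1677 was the highest of the keratins. Among the type I chains Krt18, Krt19 and Krt20, Krt18 was highest per kilobase in 37 cells, Krt20 in 12 and Krt19 in 3.

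The summed level of the simple keratins lay lower in every single cell than in either sour pool. Over the 7 genes of the list, cells ranged from 462 to 14643 CPM with a median of 4487, against 24275 and 24705 CPM in the sour pools. Single genes of the list did pass the pools in some cells: Krt18 reached 4072 CPM, Krt19 2352 CPM and Krt20 3087 CPM. The mean of the sour pools over the mean of the cells was 7.63 for Krt7, 3.59 for Krt8, 3.14 for Krt18, 2.59 for Krt19 and 1.02 for Krt20. The sour cell gene Snap25 went the other way, with a pool mean of 2067 CPM and a cell mean of 4940 CPM, and Ncam1 had a pool mean of 944 and a cell mean of 1165 CPM. Pkd2l1 had means of 3843 CPM in the sour pools and 1754 CPM in the cells. The basal keratins had higher means in the cells than in the sour pools: Krt5 155 against 53.5 CPM, Krt14 430 against 142 and Krt15 516 against 42.9. Their cell medians (0, 4.56 and 2.04 CPM) lay below both sour pools. Krt4 too had the higher mean in the cells (2122 against 963 CPM), with a cell median of 685 CPM. Plate and cell number differ together between pools and cells and cannot be told apart.

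Krt4, Krt13 and Krt6a were also read in most sour cells. Krt4 was read in 49 of the 52 (94.2%, exact 95% interval 84.1 to 98.8%), with a median of 685 CPM, quartiles of 304 and 1636 CPM, and a highest value of 20649 CPM. Krt13 had a read in 48 cells (median 227 CPM, highest 7090) and Krt6a in 42 (median 183 CPM, highest 8264). In 17 cells Krt4 had at least 1000 CPM, and in 15 cells it lay above Krt7 in CPM. The basal keratins were patchier: Krt14 had a read in 28 cells, Krt15 in 27 and Krt5 in 24. All 3 were read in 17 cells (32.7%) and none of them in 15 (28.8%). Wells without a cell were not analysed here, so the share of cells with a read that carry-over alone would give was not measured.

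**Figure D4:**
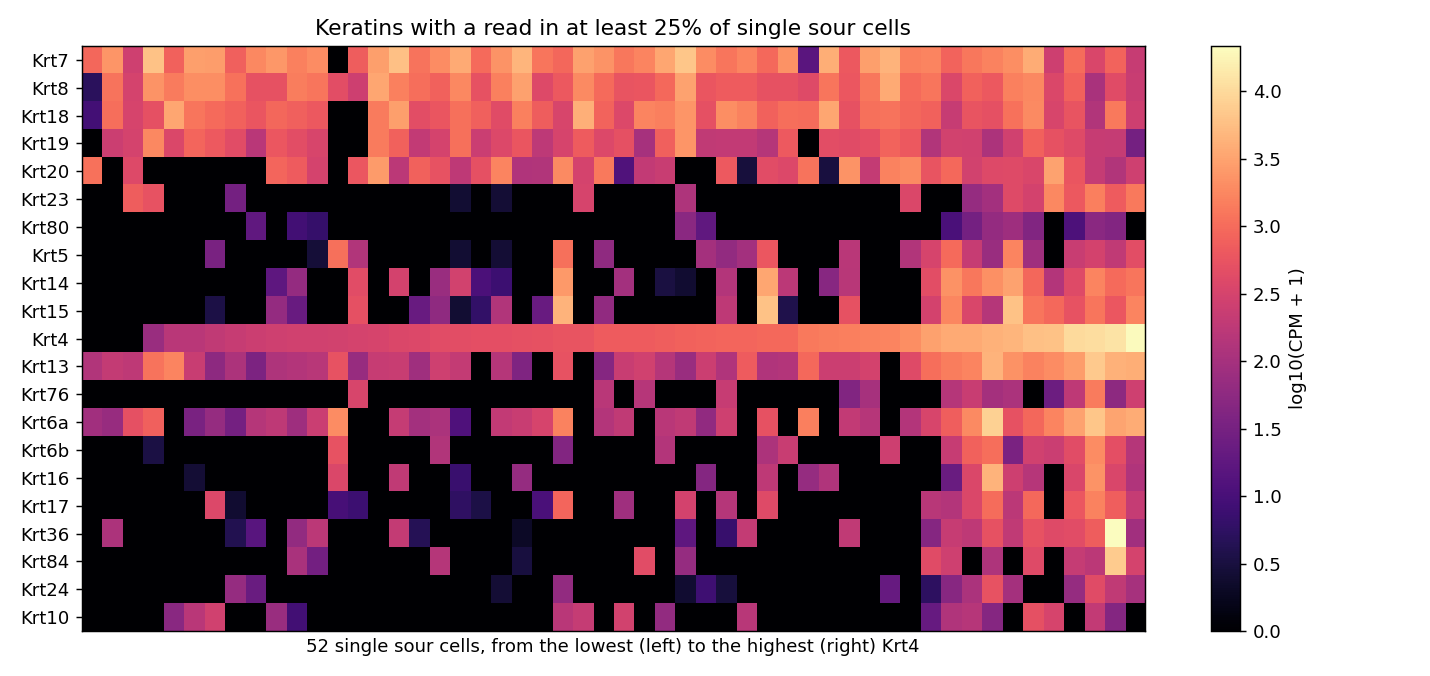
Log10 of CPM plus 1 for the 21 keratins with a read in at least 25% of the 52 single sour cells, cells ordered from the lowest to the highest Krt4. The rows of Krt7, Krt8, Krt18 and Krt19 are filled across nearly all cells, while the basal, stress and hard keratins fill in toward the cells with most Krt4, up to 20649 CPM.

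The 3 cells with the most Krt4 carried sour cell genes, at levels below those of most cells. Their summed sour cell markers were 3271, 6205 and 2860 CPM, from the most Krt4 down, against a median of 13685 CPM over all 52. Other cells with much Krt4 lay on both sides of that median. A cell with 10163 CPM of Krt4 had 10931 CPM of these markers, and a cell with 5918 CPM of Krt4 had 15499 CPM. Over all 52 cells, the rank correlation of Krt4 with the marker sum was -0.33. In the cell with the most Krt4, at 20649 CPM, Pkd2l1 had 278 CPM, Snap25 had 1577 CPM, and simple keratins made up 6.47% of keratin reads. The cell with the second most, at 12142 CPM, held 21615 CPM of Krt36 and 7378 CPM of Krt84, the highest value of either hard keratin in any cell, beside 382 CPM of Pkd2l1 and 3064 CPM of Snap25. Over all cells, Krt36 was read in 23 and Krt84 in 14, 12 of them shared, and only in that cell did either pass 1000 CPM. Sprr1a and other suprabasal keratinocyte markers summed to between 0 and 13022 CPM over the cells, with a median of 301. Their rank correlation over the 52 cells was 0.63 with Krt4, 0.73 with Krt6a and -0.27 with Krt7; their part in the result was not tested.

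Over the single cells, rank correlations were summed up within and between sets of keratins. The sets were chosen by keratin group and not found by clustering. Among Krt7, Krt8, Krt18 and Krt19, Spearman's rho over 52 cells ran from 0.45 to 0.79 with a median of 0.65, highest for Krt7 with Krt8. Among the 16 keratins outside the simple set that were read in at least 25% of cells, Krt23 and Krt80 included, rho ran from 0.04 to 0.82 with a median of 0.44, highest for Krt14 with Krt15. Between the sets it ran from -0.42 to 0.19 with a median of -0.19. Krt10 had a rho of only 0.04 to 0.31 with the other keratins of its set. These values describe cells of 1 plate that share their handling and are shares of the same total. The number of genes per cell had a rank correlation of 0.47 with Krt14, 0.45 with Krt6a, 0.25 with Krt4 and 0.16 with Krt7.

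Krt20 was put in neither set and was described apart. Its rho lay between -0.26 and -0.05 with the 4 other simple keratins. With the remaining 16 it lay between -0.18 and 0.46, highest for Krt15. With the summed sour cell markers, rho was -0.27 for Krt20, and 0.45 for Krt7, 0.54 for Krt8, 0.32 for Krt18 and 0.52 for Krt19. Where it was read, Krt20 had a median of 218.5 reads.

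**Figure D5:**
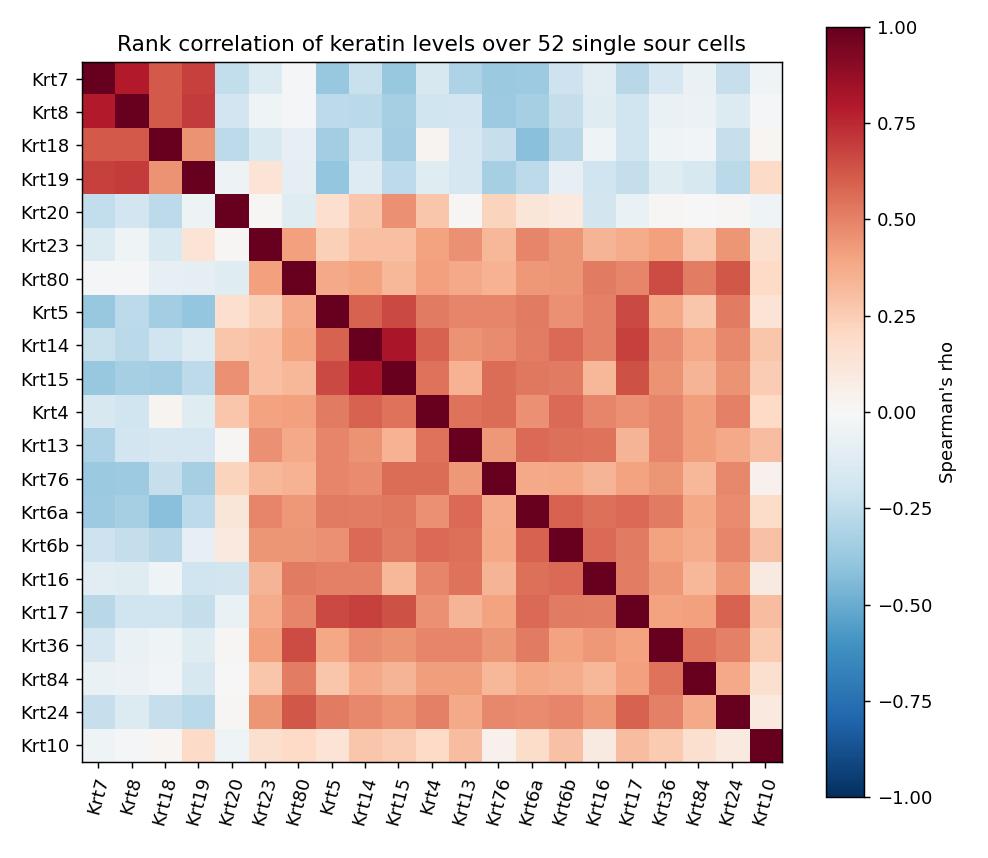
Spearman's rho between the levels of 21 keratins over 52 single sour cells, ordered by keratin group. Krt7, Krt8, Krt18 and Krt19 form a red block at the upper left (0.45 to 0.79), the basal, mucosal, stress and hard keratins form a second one, and the row of Krt20 is pale.

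Rarer keratins were seen in fewer cells. Krt23 and Krt24 had a read in 17 cells each, Krt17 in 22, Krt6b, Krt10 and Krt16 in 18 each, Krt76 in 15 and Krt80 in 13. Krt78 was read in 10, Krt35 in 8, Krt31, Krt32 and Krt79 in 7 each, and Krt1 and Krt81 in 6 each. Krt10 passed 100 CPM in 11 cells and reached 506 CPM, and Krt1 reached 124 CPM. Of these rarer keratins, Krt16 reached the highest level in a single cell, 4543 CPM, followed by Krt6b at 1955 CPM and Krt23 at 1789 CPM. The other keratins were read in 5 cells or fewer. In all, 42 keratins were seen in the kept cells, 28 of them in at least 10% of cells, and a cell held between 6 and 32 keratins with a read.

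Several keratins share stretches of sequence with relatives or processed copies. The summary line for reads that align to several places held 0 reads. Whether such reads were left out or counted for a gene is not given in the sources used here. In GENCODE M21 transcripts, 57.2% of the 50-base stretches of Krt6a and 50.1% of those of Krt6b also occur in another gene, mostly the other of the pair. For Krt16 the share was 37.6%, for Krt14 13.9% and for Krt5 12.2%. Krt8 shared 29.7%, mostly with a pseudogene, and Krt81 and Krt86 shared 37.7% and 43.3%. The levels of these genes, and most of all those of Krt6a and Krt6b, are therefore uncertain, while Krt4, Krt13, Krt19, Krt20, Krt23 and Krt24 shared none.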

How the data were processed

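The deposited tables hold raw read counts per gene symbol. Per the submitters' processing notes, the authors used STAR, HTSeq and the build GRCm38 (mm10); settings and strand are not given in the sources used here. Libraries were made with a low-input SMART-Seq kit, per the labels' protocols. HTSeq summary lines, 92 spike-ins, 3 reporter rows and 27 symbols turned into dates (at most 3.20% of a library's reads) were left out. The labels list 2 sour and 10 control pools, of which 2 and 4 are in the table; groups, replicate numbers and plates came from the labels. No 2 libraries had identical counts.

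For the pools, edgeR 4.0.16 under R 4.3.3 gave quasi-likelihood tests (TMM factors, filterByExpr by group), fitted over all genes and checked on simulated counts. Alternatives were DESeq2 1.42.0, RLE scaling, scaling without keratins, no filter, robust dispersion, plate as a replicate block (sour and control pools of plates 1 and 3 share a plate number in the labels), plates with both kinds of pool, and each pool left out. Single-cell shares have exact (Clopper-Pearson) 95% intervals, which cover counting error only. Exon lengths and coordinates came from GENCODE M21, promoters from RefSeq (GRCm38.p6). CPM per kb divides by the union of a gene's exons. Named were all keratins past the filter or read in at least 10% of cells, and of other lists at most 5 called genes a direction, by p. Members and lists were chosen with earlier results of these data known. One gene of the transcription factor list is not reported here, and the list was counted without it.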

Additional observations from a re-analysis of the deposited data

Results flagged for a closer look

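Among the 4 control pools, 3 of 29 measures had a pool far from the rest by Dixon's test, which chance gives for about 1 in 20 measures. Krt79 had 605 CPM in control pool 1, against 5.82 to 10.7 CPM in the others. Krt19 had 30.8 CPM in control pool 1, against 2.62 to 5.82 CPM in the others. Krt36 had 61.1 CPM in control pool 6, against 2.67 to 10.5 CPM in the others.

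The series also holds single geniculate ganglion neurons of P2rx3-tdTomato mice, sequenced by another method (CEL-Seq). Of 422 neurons with at least 1000 genes, 138 had a read of the keratin-like Krt222 (32.7%, exact 95% interval 28.2 to 37.4%) and 51 had a read of Krt10 (12.1%, 9.13 to 15.6%). The keratins of sour cells were rare there, with Krt8 in 7 neurons and Krt7 in 0, which allows a share of up to 0.870%. All keratins together took a median of 0% and at most 0.193% of a neuron's gene reads.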

How the results depend on the processing

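All 15 called keratins kept their direction and call in all 13 alternatives of the test. Of the 5 keratins not called, 4 were called in some alternative. Without a filter on low counts, Krt6b (log2 fold change -2.85), Krt16 (-2.87), Krt36 (2.14) and Krt79 (-3.44) were called as well. Of all 14365 genes in that fit, 1595 were called higher and 1398 lower. Leaving out 1 pool at a time, Krt16 was called without control pool 1 and without control pool 4 (log2 fold change -3.19 in both). Krt6b was called without control pool 4 (-3.20). The fit without control pool 4 is the same as that of plates with both kinds of pool. The 13 alternatives count it under both names. With each pool left out in turn, keratins called higher numbered 5 to 6 and called lower 10 to 13, and all genes called higher numbered 638 to 1290 and called lower 761 to 1215; the lowest of both came without sour pool 1, where the median of all tested genes moved to -0.27. With plate as a replicate block, 6 keratins were called higher and 12 lower. Of all 7739 tested genes, 1224 were called higher and 1203 lower in that fit. As a share of summed CPM per kilobase, keratins made up 2.95% in sour pools and 12.97% in control pools, against 2.68% and 8.86% of reads. Of 140 single-cell shares under other settings, 137 stayed in their interval, which is wide, and the settings reuse the same cells. With at least 10 reads asked for, the widest falls were those of Krt15 (51.9 to 40.4%), Krt17 (42.3 to 30.8%) and Krt24 (32.7 to 21.2%). Over the 44 cells with at least 2000 genes, Krt7, Krt18 and Krt19 were read in 100% of cells. With 2 sour pools, from a kit without molecular identifiers, smaller differences between the groups may have been missed; cells of unknown mice limit what the single-cell shares cover.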
